A study of Mus musculus with 8 samples.

Results

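The genes described here are 9 oncofetal RNA-binding protein and let-7 axis genes of the mouse: Igf2bp1, Igf2bp2, Igf2bp3, Lin28a, Lin28b, Trim71, Hmga1, Hmga2 and Dis3l2. They were chosen by gene symbol, and each had 1 row in every table, among 35494 loci (1 h table) or 35541 loci (8 and 24 h tables). RNA was taken from retinal organoids at day 6 of differentiation, made from an Rx:GFP mouse line in which FKBP12F36V-HA was knocked into the C-terminal end of both endogenous Mettl3 alleles. All groups share this genotype, and the labels name 1 line. FKBP12F36V is a degron tag, and dTAG-13 is a small molecule that brings the tagged protein to a ubiquitin ligase for degradation. METTL3 is the catalytic subunit of the complex that writes N6-methyladenosine (m6A) on mRNA. The 8 samples form 4 groups of 2 replicates: untreated (0 h), and 1, 8 and 24 h of dTAG-13 at 125 nM. The labels do not say whether the untreated organoids received solvent, and all organoids were collected at the same time. The question addressed here is whether transcripts of this gene set changed in abundance after METTL3 was targeted for degradation.

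Most of these genes, Dis3l2 not among them, encode proteins that are abundant in embryonic progenitors, decline in most adult tissues and return in many tumours. IGF2BP1, IGF2BP2 and IGF2BP3 bind mRNA and are described as stabilising their targets, including m6A-bearing ones. LIN28A and LIN28B bind let-7 precursors and block their maturation, DIS3L2 degrades the precursors that have been tailed with uridines, and let-7 in turn represses Lin28a, Lin28b, Trim71, Hmga2 and Igf2bp mRNAs. HMGA1 and HMGA2 are chromatin proteins that bind AT-rich DNA.

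The let-7 seed and its matches are shown first, because all members except Dis3l2 hold a match. Of 11 mature let-7 and miR-98 sequences in RefSeq (GRCm38.p6), 10 share the same seed, bases 2 to 8 counted from the 5′ end, written in capitals; let-7j has another last base in it. No miRNA was measured in these libraries.
let-7a-5p: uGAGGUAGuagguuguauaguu
let-7e-5p: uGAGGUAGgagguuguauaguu
let-7j: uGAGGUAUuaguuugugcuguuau

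The DNA letters that pair with the shared seed are CTACCTC, which were searched on the sense strand of the annotated 3′ UTR only. The 3′ UTRs of 8 of the 9 genes held 21 matches in all, 4 each in Igf2bp1, Lin28b, Trim71 and Hmga2, 2 in Lin28a and 1 each in Igf2bp2, Igf2bp3 and Hmga1. Dis3l2 held none in its 347 bases. For comparison, 8.16% of 20723 annotated mouse 3′ UTRs held at least 1 match. Among 3′ UTRs within 10% of the same length, at least 1 match was present in 33.7% for Igf2bp1, 22.8% for Lin28b, 29.6% for Trim71, 14.3% for Hmga2 and 13.9% for Lin28a. The genes were chosen as let-7 axis genes, so the number of matches describes the choice. A match describes letters, and whether let-7 acts there was not measured. The match nearest to the stop codon of each gene is printed, with the bases that pair with the seed, and an A that follows them, in capitals. Coordinates are GRCm38.
Igf2bp1, chr11:95961778-95961807, minus strand: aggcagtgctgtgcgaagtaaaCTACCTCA
Igf2bp2, chr16:22059473-22059502, minus strand: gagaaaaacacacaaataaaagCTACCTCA
Igf2bp3, chr6:49086787-49086816, minus strand: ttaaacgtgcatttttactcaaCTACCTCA
Lin28a, chr4:134005189-134005218, minus strand: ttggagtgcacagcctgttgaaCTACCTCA
Lin28b, chr10:45381022-45381051, minus strand: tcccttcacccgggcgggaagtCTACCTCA
Trim71, chr9:114512472-114512501, minus strand: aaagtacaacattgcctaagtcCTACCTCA
Hmga1, chr17:27563270-27563299, plus strand: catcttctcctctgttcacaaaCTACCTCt
Hmga2, chr10:120364222-120364251, minus strand: ggggcgccgacattcaatttCTACCTCAgc

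In Lin28b and Hmga2 this match began 36 and 21 bases after the stop codon. Trim71 held 4 matches, all followed by A, at 166, 262, 3591 and 3617 bases after the stop codon.

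**Figure D1:**
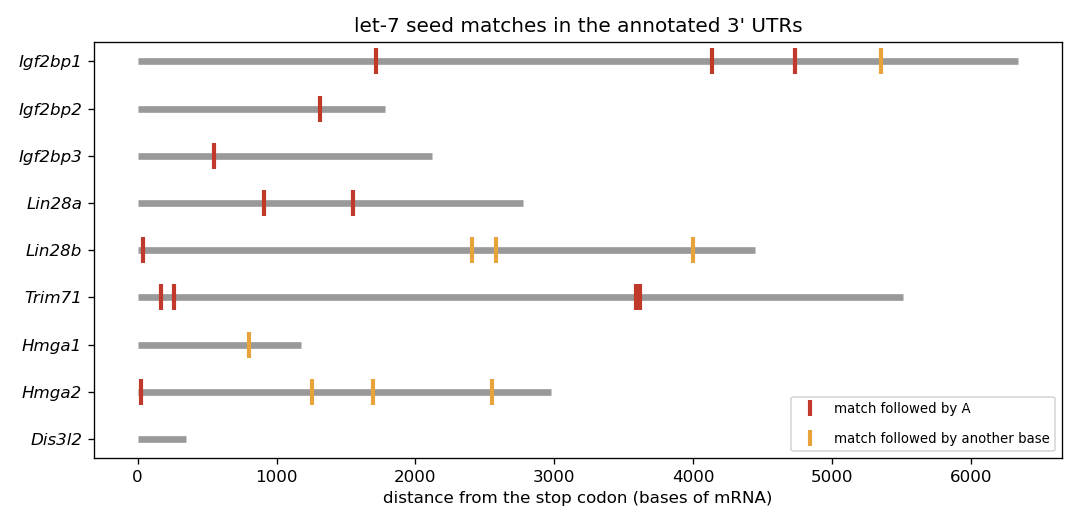
Annotated 3′ UTR of each gene (grey bar, distance from the stop codon in bases of mRNA), with each let-7 seed match marked by a tick, red where the match is followed by A and orange otherwise. Trim71 has 2 close pairs of matches, and Dis3l2, with a 3′ UTR of 347 bases, has none.

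Each table pairs 0 h with 1 treated time, and its columns pool the replicates of a condition. The labels describe independent rounds of library preparation for the duplicates, but their spread cannot be read from pooled columns. The error given is the interval deposited with each FPKM (fragments per kilobase of transcript, scaled to library size), whose level the headers do not state. Conditions summed to between 31361518 and 32562075 estimated counts. A locus was tested when it reached 1 FPKM in at least 1 condition with an OK status, and called when FPKM differed at least 1.5-fold, with 0.1 FPKM added to both values, and the intervals did not overlap. This rule gives no p-value. The transcript of the degron-tagged gene, Mettl3, was not called at any time, with a log2 ratio of -0.19 at 24 h. A fall of 2.74-fold at 24 h was needed before its intervals would separate, so smaller falls were not detectable. Its locus overlaps Tox4 and Rab2b, expressed at up to 27.8 FPKM in the 1 h table, where Mettl3 had 19.2 at 0 h. Protein levels, on which the degron acts, are outside these data. Markers of the labelled tissue were present, with Rax at 49.7, Pax6 at 126 and Lhx2 at 142 FPKM at 0 h in the 8 h table. Pluripotency markers were also present, with Pou5f1 at 34.7 and Dppa5a at 200 FPKM (199.7), while the 5 neuronal markers with a row ranged from 0.102 (Atoh7) to 4.67 FPKM (Stmn2), and of these Stmn2 and Elavl4 (1.49) passed the 1 FPKM limit.

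Before treatment, all 9 genes were expressed well above the 1 FPKM limit. In the 0 h column of the 8 h table, Hmga1 was highest at 197 FPKM (interval 153 to 242), followed by Lin28a at 157 (126 to 187) and Igf2bp2 at 105 (83.04 to 126). Igf2bp3 stood at 89.4 (71.6 to 107), Hmga2 at 76.7 (62.1 to 91.4) and Lin28b at 66.3 (53.6 to 79.0). Igf2bp1 stood at 47.0 (33.04 to 60.9), Dis3l2 at 23.5 (18.9 to 28.2) and Trim71 at 22.01 (17.8 to 26.2). FPKM is a level per length, so these values can be compared between genes. Each interval overlapped that of the next gene in this order, except that Igf2bp1 and Dis3l2, 2.00-fold apart, had separate intervals. The order was the same in the 0 h columns of the other tables, which come from the same libraries. Hmga1 exceeded 96.7% and Trim71 66.0% of the tested loci of that table.

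After dTAG-13, no member was called at any time. At 1 h, 0 of 8 tested members were called, where 0.402% of all 13690 tested loci were. At 8 h, 0 of 8 were called against 4.43% of 13825 loci, and at 24 h 0 of 8 against 5.48% of 13910. No member reached 1.5-fold without regard to intervals, where 5.16%, 13.7% and 17% of all tested loci did at 1, 8 and 24 h. No member had separate intervals without regard to fold, where 0.402%, 4.56% and 5.51% of loci did. Among loci whose 0 h FPKM lay between those of the lowest and the highest tested member, 0.121%, 3.12% and 4.28% were called at 1, 8 and 24 h, and 1.14%, 5.41% and 7.58% reached 1.5-fold. With 8 genes, a count of 0 is near these backgrounds and is not a result about the members. The ninth member, Igf2bp1, could not be tested because its treated value carried a FAIL status in each table. The members rested on 1954.6 to 17306 estimated counts with coefficients of variation of 9.32% to 10.4%. With intervals of the deposited widths, a rise of 1.46- to 1.65-fold, or a fall of 1.47- to 1.65-fold, was needed before a member's intervals would separate, so smaller differences were not detectable.

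**Figure D2:**
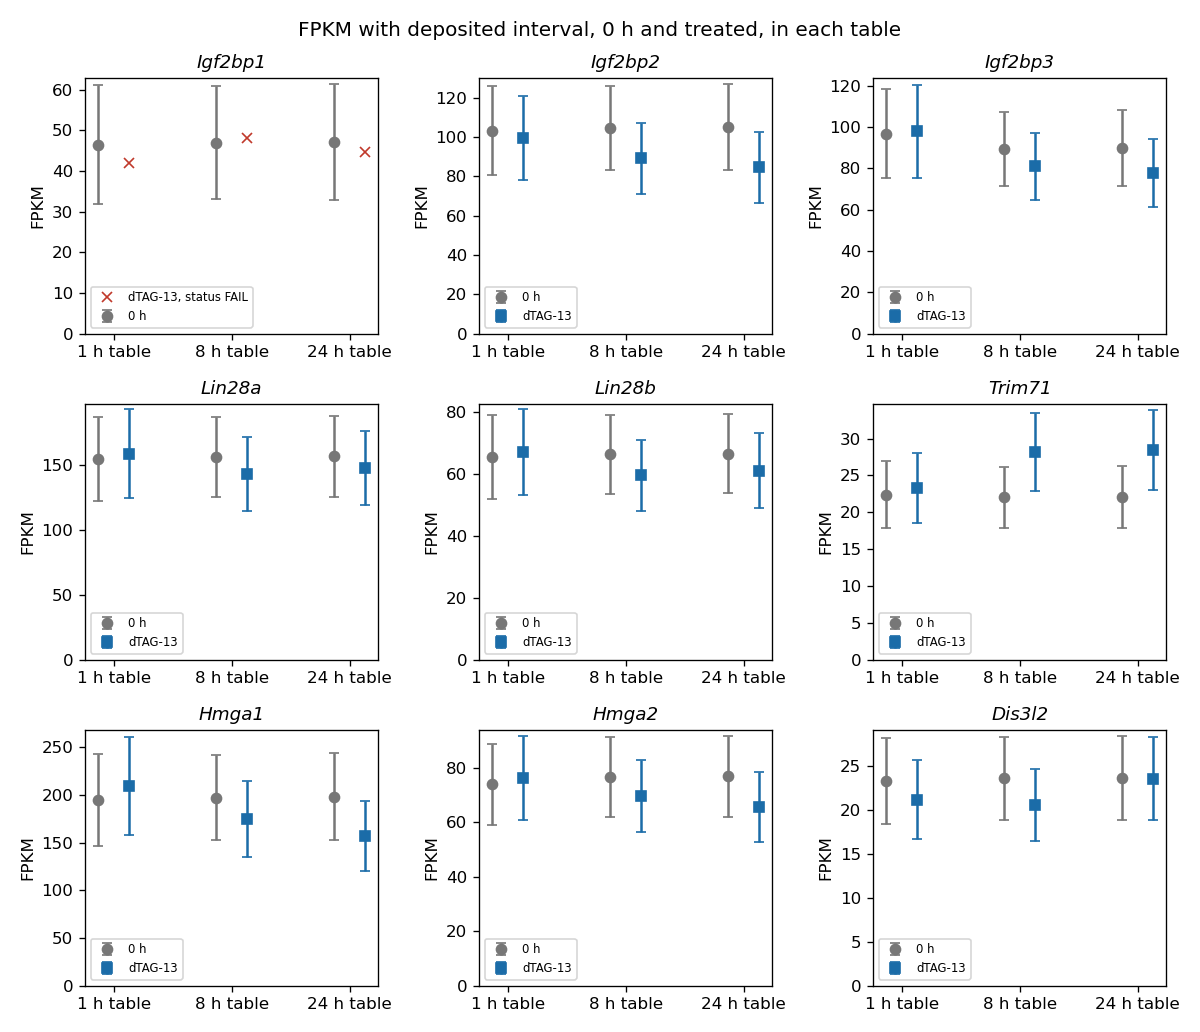
FPKM of each of the 9 genes (linear axis from 0) at 0 h (grey circles) and after dTAG-13 (blue squares), shown for the 1, 8 and 24 h tables, with bars for the deposited intervals. The intervals overlap in every tested pair, and the treated values of Igf2bp1 (red crosses) are drawn without an interval because their status is FAIL.

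By direction, at 1 h 6 of the 8 tested members lay above 0 on the log2 scale, with a median of 0.04 beside 0.01 over all tested loci. At 8 h 7 of 8 lay below 0, with a median of -0.15 beside 0.01, and at 24 h the same number lay below 0, with a median of -0.17 beside 0.02. Loci in the members' range of 0 h FPKM had medians of 0.03, -0.07 and -0.06, and 37.5%, 60.8% and 58.7% of them lay below 0 at 1, 8 and 24 h, so most loci of this range lay on the same side as most members each time. The 3 comparisons share the 0 h libraries, so the ratios at different times are not independent of each other. Trim71 was the member above 0 at 8 and 24 h.

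**Figure D3:**
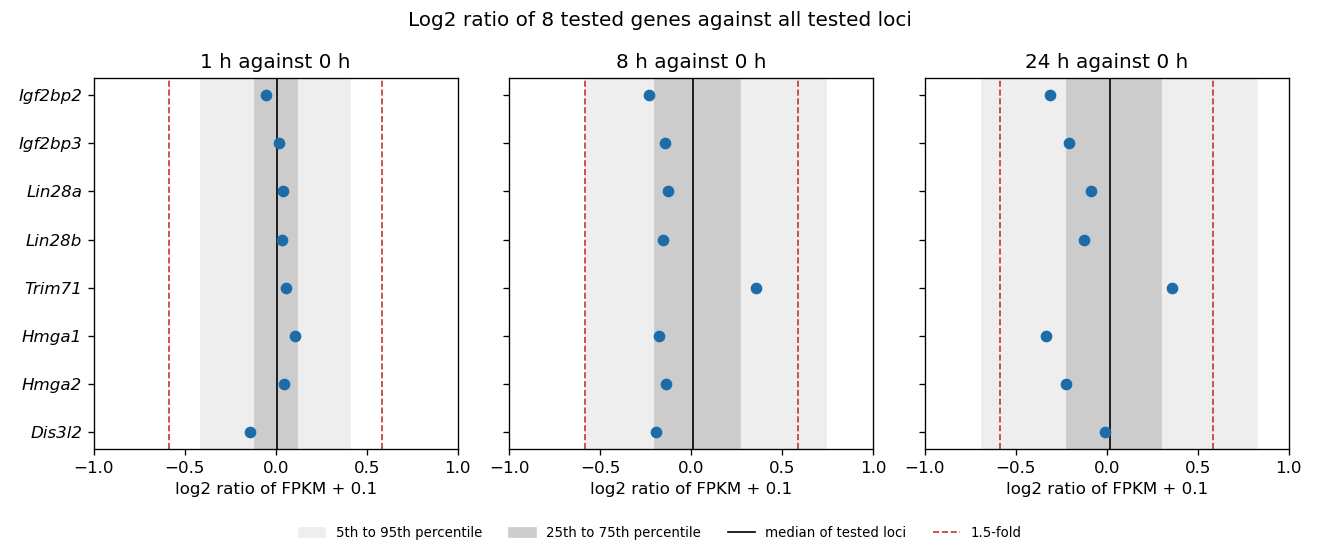
Log2 ratio of FPKM + 0.1, treated over 0 h, for the 8 tested genes (blue points) at 1, 8 and 24 h, over the 25th to 75th (dark grey) and 5th to 95th (light grey) percentiles of all tested loci, with the 1.5-fold limits as dashed lines. All points lie inside the dashed lines, and Trim71 lies at 0.36 at both 8 and 24 h.

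Among the IGF2BP genes, Igf2bp2 had the lowest ratio of all members at 8 h. Its FPKM was 103 (80.5 to 126) at 0 h and 99.5 (78.3 to 121) at 1 h. For the later times it was 105 (83.04 to 126) before and 89.2 (71.2 to 107) after 8 h, and 105 (83.1 to 127) before and 84.6 (66.6 to 103) after 24 h. The intervals overlapped each time, and the log2 ratios were -0.05, -0.23 and -0.31. At 24 h the deposited bounds allowed a ratio of treated to untreated between 0.525 (lowest treated over highest untreated) and 1.24 (highest treated over lowest untreated). Of all tested loci, 17.9% had a lower ratio than Igf2bp2 at 24 h.

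Igf2bp3 gave 96.8 (75.3 to 118) FPKM at 0 h and 98.1 (75.5 to 121) at 1 h. It gave 89.4 (71.6 to 107) and 81.0 (64.7 to 97.3) in the 8 h table, and 89.8 (71.4 to 108) and 77.7 (61.1 to 94.3) in the 24 h table. The log2 ratios were 0.02, -0.14 and -0.21, with overlapping intervals. Its 0 h level differed 1.08-fold between tables although the libraries are the same, the widest such difference among the members. The locus overlaps Malsu1, expressed at up to 11.04 FPKM. Whether counting used strand is not given, so a part of its reads may belong to that gene.

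Igf2bp1 had usable values at 0 h alone. Its treated FPKM was listed as 42.0 at 1 h, 48.2 at 8 h and 44.8 at 24 h, beside 46.5, 47.0 and 47.1 at 0 h. The deposited intervals of these treated values ran from 0 to 13.1, 15.9 and 14.5, entirely below the values they belong to, which cannot be used as an error. The same FAIL status was given in each table to Gm29202, which occupies the same locus. The estimated counts of Igf2bp1 were 11870 with a deposited SD of 1203 at 0 h and 10729 (SD 1092, from 1091.5) at 1 h. At 8 h they were 12065 (SD 1125) before and 12084 (SD 1130) after, and at 24 h 11942 (SD 1131) before and 11202 (SD 1076) after. The difference between the counts was smaller than the deposited SD at 0 h each time, although at 1 h it exceeded that of the treated count. These SDs belong to single counts and not to their difference, and the treated condition had a FAIL status. Whether Igf2bp1 changed therefore cannot be read from these counts.

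Lin28a, the LIN28 paralog with the higher level here, gave 155 (122 to 187) FPKM at 0 h and 159 (125 to 193) at 1 h. It gave 157 (126 to 187) and 143 (115 to 172) in the 8 h table, and 157 (126 to 188) and 148 (119 to 177) in the 24 h table. The log2 ratios of 0.04, -0.13 and -0.09 lay close to 0, and 81.8% of tested loci had a ratio at least as far from 0 as the one at 24 h. Bounds at 24 h allowed a ratio between 0.632 and 1.40.

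Lin28b gave 65.3 (51.8 to 78.8) FPKM at 0 h and 66.9 (53.1 to 80.8) at 1 h, 66.3 (53.6 to 79.0) and 59.5 (48.0 to 71.0) in the 8 h table, and 66.5 (53.6 to 79.4) and 61.0 (48.9 to 73.1) in the 24 h table. The log2 ratios were 0.03, -0.15 and -0.12. The balance of the paralogs moved little: the FPKM of Lin28a was 2.36 times that of Lin28b at 0 h in the 24 h table and 2.42 times at 24 h.

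Dis3l2, the exoribonuclease that acts downstream of LIN28, gave 23.3 (18.4 to 28.1) FPKM at 0 h and 21.1 (16.6 to 25.6) at 1 h. It gave 23.5 (18.9 to 28.2) and 20.6 (16.5 to 24.7) in the 8 h table, and 23.6 (18.8 to 28.4) and 23.5 (18.8 to 28.2) in the 24 h table. The log2 ratios were -0.14, -0.19 and -0.01, so the values at 24 h were nearly equal. The bounds at 24 h still allowed a ratio between 0.662 and 1.498.

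Trim71, the mouse LIN-41 protein that binds and represses mRNAs in early embryonic cells, came nearest to the limits of the rule. Its FPKM was 22.4 (17.8 to 26.9) at 0 h and 23.2 (18.5 to 28.0) at 1 h. At 8 h it was 22.01 (17.8 to 26.2) before and 28.2 (22.9 to 33.5) after, and at 24 h 22.1 (17.9 to 26.3) before and 28.4 (22.95 to 33.8) after. The treated values of both later tables lay above the upper bound of 0 h, while the lower bounds of the treated values, 22.9 and 22.95 FPKM, lay inside the intervals of 0 h. The log2 ratios were 0.05, 0.36 and 0.36, which correspond to differences of 28.1% and 28.4% at 8 and 24 h, and the bounds allowed a ratio from 0.876 to 1.88 at 8 h. Estimated counts were 5834 (SD 548) before and 7468 (SD 697) after 8 h, a log2 ratio of 0.36. They come from the same libraries as the FPKM and are no separate support for it. Of all tested loci, 31.4% at 8 h and 35.7% at 24 h had a ratio at least as far from 0.

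By distance over the 3 log2 ratios, the 5 genes with patterns most like that of Trim71 among 11020 others were Tceal1, Nif3l1, Casp8, Plaa and Arhgap17. Tceal1 had ratios of 0.06, 0.35 and 0.37, and the distances of the 5 ranged from 0.0115 to 0.0275 on the log2 scale. None of them was called at 8 or 24 h, which follows from choosing genes with ratios like those of Trim71, under the 1.5-fold limit.

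Hmga1 had the lowest ratio of the members at 24 h. Its FPKM was 195 (147 to 243) at 0 h and 209 (158 to 261) at 1 h. It was 197 (153 to 242) and 175 (135 to 215) in the 8 h table, and 198 (152 to 244) and 157 (120 to 194) in the 24 h table. The log2 ratios were 0.10, -0.18 and -0.34, and the bounds at 24 h allowed a ratio from 0.492 to 1.27. Hmga1 shares sequence with Hmga1b, a copy on chromosome 11 at 120762794 to 120764419: 59.9% of the 100-base windows of the Hmga1 transcript occur unchanged in Hmga1b, and the tables do not show how reads from the shared part were divided. Hmga1b was listed at 143 (116 to 170) FPKM at 0 h and 120 (97.0 to 142; 119.6 before rounding) at 24 h, with log2 ratios of -0.13 and -0.26 at 8 and 24 h. The values of both genes are uncertain for that reason. No other member shared a window of that length with another annotated gene. The locus of Hmga1 also overlaps AI413582, at up to 3.72 FPKM.

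Hmga2 gave 74.0 (59.1 to 88.9) FPKM at 0 h and 76.3 (60.8 to 91.9) at 1 h. It gave 76.7 (62.1 to 91.4) and 69.5 (56.3 to 82.8) in the 8 h table, and 77.0 (62.1 to 91.8) and 65.8 (52.9 to 78.6) in the 24 h table. The log2 ratios were 0.05, -0.14 and -0.23. The intervals overlapped each time, and the bounds at 24 h allowed a ratio from 0.577 to 1.27. Its locus overlaps 1700006J14Rik, at up to 1.42 FPKM.

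In GENCODE M21 (GRCm38) the gene of Igf2bp1 lies at chr11:95957163-96005940, Igf2bp2 at chr16:22059009-22163299 and Igf2bp3 at chr6:49085223-49214957, all on the minus strand. Lin28a lies at chr4:134003330-134018841, Lin28b at chr10:45376620-45486395, Hmga2 at chr10:120361275-120476469 and Trim71 at chr9:114507133-114564369, also on the minus strand. Hmga1 (chr17:27556497-27563674) and Dis3l2 (chr1:86703808-87050095) lie on the plus strand. These gene models differ in coding exon density, the number of coding exon junctions per kilobase of coding sequence. Tested genes with a unique name and an annotated coding sequence, 10964 at 8 h, were cut into 10 groups of equal size by this density (deciles). The median ratio at 8 h ran from 0.41 in the lowest decile to -0.13 in the highest. Trim71 has 4 coding exons over 2565 bases of coding sequence, or 1.17 junctions per kilobase, and fell in the lowest decile. Lin28a (4.78) and Lin28b (4.92) fell in the fourth decile, Dis3l2 (7.28), Igf2bp3 (8.06) and Igf2bp2 (8.45) in the seventh, eighth and ninth, and Hmga1 (9.35) and Hmga2 (12.3) in the highest. At 8 h the middle 50% of the lowest decile ran from 0.10 to 0.68, which holds the 0.36 of Trim71. That of the highest decile ran from -0.29 to 0.02, which holds Hmga1 and Hmga2. Igf2bp2 (-0.23, in a decile with a middle 50% from -0.27 to 0.03), Igf2bp3 (-0.14, -0.26 to 0.04) and Dis3l2 (-0.19, -0.23 to 0.09) were also inside the range of their own decile. Lin28a (-0.13) and Lin28b (-0.15) lay below theirs, which ran from -0.09 to 0.30. At 24 h Lin28a and Lin28b, at -0.09 and -0.12, were inside their range of -0.16 to 0.30, and Hmga1 (-0.34) and Igf2bp2 (-0.31) lay below theirs, which began at -0.28 and -0.29. A middle 50% holds 50% of its group by definition, so lying inside it does not set a gene apart. Over all tested loci at 8 h, undivided, the middle 50% ran from -0.20 to 0.27. That range holds every tested member except Trim71 and Igf2bp2. Whether exon density bears on these genes was not tested.

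**Figure D4:**
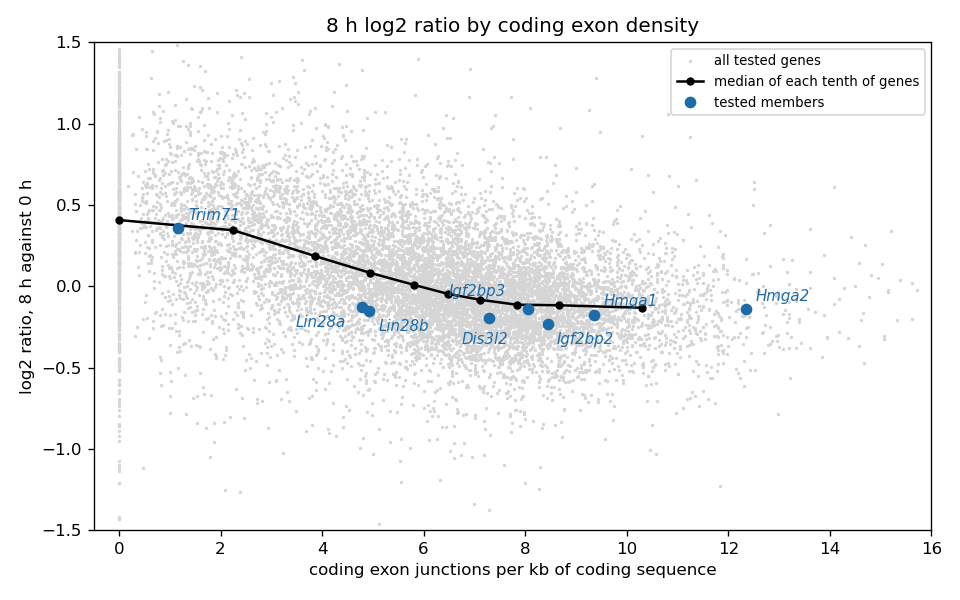
Log2 ratio at 8 h against coding exon junctions per kilobase of coding sequence for 10964 tested genes (grey), the median of each decile of genes (black line) and the 8 tested members (blue, named); 50 genes lie outside the axes. Trim71 lies near the medians of the genes with low density, and the other 7 members lie below 0.

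The 3′ UTRs were long in several members, with 6337 bases in Igf2bp1, 5512 in Trim71 and 4445 in Lin28b, where the median of all genes was 847. The letters GGACT, the commonest form of the m6A consensus, were counted on the sense strand of the whole transcript. Trim71 held 14, Igf2bp1 10, Dis3l2 6, Lin28a and Igf2bp2 5 each, Lin28b and Hmga2 4 each, Hmga1 3 and Igf2bp3 2. Per kilobase this was 1.94 in Dis3l2, 1.19 in Igf2bp1 and 0.460 in Igf2bp3, beside a median of 1.01 over 21875 genes. Of transcripts within 10% of the same length, 88.6% (for Hmga1) or more held at least 1, and for Trim71 and Igf2bp1 all of them did. Holding at least 1 therefore could not set a gene apart, and methylation was not measured here.

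Genes around the members were read from 6 lists: miRNA processing and Argonaute genes, described let-7 targets, transcripts described as bound by IGF2BP proteins, IGF2BP partner proteins, exoribonucleases, and other high mobility group genes. Of 85 tested genes none was called at 1 h, where 0.117% of all tested loci were higher and 0.285% lower. At 8 h 2 of 86 were called higher and 1 lower, where 3.49% of all tested loci were higher and 0.94% lower. At 24 h 1 was higher and 1 lower, against 3.83% and 1.65%. The list counts were thus near or under the background.

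Of 25 tested let-7 targets, 1 was called, at 8 and 24 h. It was Insr, the insulin receptor, which rose from 4.63 (3.59 to 5.66) to 8.41 (6.73 to 10.1) FPKM at 8 h, a log2 ratio of 0.85. In the 24 h table it stood at 4.64 (3.59 to 5.70) before and 7.87 (6.27 to 9.47) after, a log2 ratio of 0.75. Neither call held with a 2-fold threshold. The list medians were 0.04, 0.06 and 0.04, beside 0.01, 0.01 and 0.02 over all loci. Uncalled targets included Myc (0.52, 0.14 and -0.28), Mycn (0.47, 0.45 and 0.20) and Ccnd1 (0.16, 0.00 and -0.18).

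Of 10 tested transcripts described as IGF2BP-bound, 1 was called, also at 8 and 24 h. Gap43, a growth cone protein of neurons, fell from 4.99 (3.65 to 6.33) to 2.67 (1.82 to 3.53) FPKM at 8 h and from 5.01 (3.64 to 6.37) to 1.61 (0.973 to 2.25) at 24 h, log2 ratios of -0.87 and -1.58. The call at 8 h was lost with estimated counts, with a 5 FPKM limit and with a 2-fold threshold. Neuronal markers were low throughout, with a summed level of 6.91 FPKM before and 5.51 after 24 h over 5 genes, and none of the tested ones was called. Their part in the value of Gap43 was not tested. H19, the imprinted RNA that IGF2BP proteins bind, had a ratio of -0.56 at 24 h and was not called, and the list medians were 0.07, -0.11 and -0.13.

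The exoribonucleases had 1 call among 16 at 8 h. Exosc4, an exosome ring subunit, rose from 14.5 (10.8 to 18.2) to 23.9 (18.7 to 29.1) FPKM, a log2 ratio of 0.72, and was not called at 24 h (0.49) or, at 8 h, with a 2-fold threshold. The list medians were 0.09, -0.09 and -0.16. Dis3 and Dis3l, the relatives of Dis3l2, had ratios of -0.03 and -0.04 at 8 h.

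No gene was called by FPKM among 16 to 17 miRNA processing genes, 8 IGF2BP partners or 10 high mobility group genes. With estimated counts in place of FPKM, Tnrc6c, which encodes a GW182 protein of the miRNA silencing complex, was called higher at 8 and 24 h, with count log2 ratios of 1.15 and 0.88 beside FPKM ratios of 0.39 and 0.38. Dicer1, which cuts let-7 precursors, had log2 ratios of 0.08, 0.43 and 0.33, and Drosha 0.03, 0.14 and 0.20. Zcchc11, the uridylyltransferase TUT4 that LIN28A recruits, had 0.03, 0.18 and 0.20. Hmgb2 had ratios of 0.12, -0.25 and -0.07, Hmgn1 of 0.12, -0.23 and -0.19, and Hmgn5 of 0.03, -0.18 and 0.25. Ybx1, an IGF2BP partner, had 0.07, -0.14 and -0.38.

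Cell type markers moved in the same tables. Lin28a, Trim71 and Igf2bp1 are also expressed by pluripotent cells, and of 8 pluripotency markers 2 fell at 24 h, Dppa5a (-0.88) and Tdgf1 (-1.05), while 6 were not called. Their summed level was 329 FPKM before and 216 after 24 h, and 327 before and 290 (289.5) after 8 h. Most of this fall was that of Dppa5a, which went from 200.4 to 109 FPKM at 24 h. Left out after the values were seen, it leaves 7 markers, which summed to 128 before and 107 after, and Klf4 (0.33) and Zfp42 (0.18) had ratios above 0. None of these markers was at 0. Of 8 eye field markers, Rax (0.66) and Lhx2 (0.69) rose at 24 h and 6 were not called, and the summed level was 589 before and 795 after. Over the same interval Lin28a had a ratio of -0.09 and Trim71 of 0.36. The part of these marker changes in the values of the members was not tested, and in whole organoids fewer cells of a type and less RNA per cell cannot be told apart.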

How the data were processed

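Polyadenylated RNA of 8 samples was sequenced, per the labels, and grouped by title into 0, 1, 8 and 24 h of dTAG-13, with 2 replicates each. The submitters' processing notes name Cufflinks 2.2.1, Cuffdiff and mm10; annotation and strandedness are not given in the sources used here. The authors deposited 3 pairs of tables, one per treated time, with FPKM and its interval in one and estimated counts and their variance in the other, per the file headers, each with replicates combined into 1 column per condition. No count model or test across replicates was therefore possible. A median interval half-width was 2.16 to 2.17 deposited SDs.

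Ratios were formed within tables, as log2((treated FPKM + 0.1) / (0 h FPKM + 0.1)), which understates changes of low genes. Loci of 1 FPKM or more with an OK status were tested, and called at 1.5-fold with intervals apart. Loci with several or repeated names (637 to 638 with several) were left out of lists, so Igf2, Syncrip and Matr3, among others, were not used. Loci without a gene name stayed in the totals. Status was not OK for 10, 7 and 9 loci. Locus starts were read as 0-based.

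Gene models, transcripts and 3′ UTRs came from GENCODE M21 (GRCm38, the assembly of mm10), using 1 coding transcript per gene by APPRIS rank and then coding length; miRNAs came from RefSeq. The members and lists were chosen with earlier results of these data known. The naming rule takes all members, each called gene of the 6 lists, and the 5 genes nearest in pattern to the member with the largest ratio at 8 and at 24 h; other list genes with values were named after the values were seen. Alternatives covered the pseudocount, filters, fold and interval rules, counts and centring. The calling script was tested on simulated data with planted changes larger than the 1.5-fold limit. That test does not show how well changes near or under the limit would be found. Python 3.11.15, pandas 2.3.3 and numpy 2.4.6 were used.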

Additional observations from a re-analysis of the deposited data

How the results depend on the processing

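The number of called members was 0 at each time under all 10 alternatives, the fold criterion without intervals included. The largest absolute log2 ratio of a tested member under any of them was 0.36, under the 1.5-fold limit. Filters and the 2-fold threshold therefore could not have added a called member. Filters, call rules and pseudocounts cannot change the sign of a ratio. Estimated counts and centring can, and under these 47 of 48 ratios of tested members kept their sign. Igf2bp3 at 1 h changed sign with estimated counts in place of FPKM, from 0.02 to -0.012. A 2-fold threshold left 0 called genes of the 6 lists at 8 h and 1 at 24 h. Estimated counts called Tnrc6c higher at both later times (count log2 ratios of 1.15 and 0.88, FPKM ratios of 0.39 and 0.38), and no longer called Gap43 at 8 h; the cause was not tested. Gap43, at 4.99 FPKM or less, was also not tested at 8 h with at least 5 FPKM, which left 2 called genes of the lists. Over all loci, the fold criterion alone called 707, 1896 and 2371, and a 2-fold threshold called 217 at 8 h and 297 at 24 h. At 1 h the call count was 95 without a filter, 30 with at least 5 FPKM, 33 with at least 10 counts and 27 with estimated counts, the last split into 2 higher and 25 lower beside 16 and 39 by FPKM. The order of levels at 0 h was the same in the other 0 h columns, an alternative chosen after seeing the data, and the longest annotated 3′ UTRs held the same number of let-7 matches, 21. No paired analysis was possible because each table holds 1 column per condition, and for the same reason no replicate could be left out.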

Other observations

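All tested genes with a unique name and an annotated 3′ UTR, the tested members included, were grouped by the number of let-7 seed matches in it. This grouping was chosen after seeing the data. At 8 h the median log2 ratio was 0.01 for 9802 tested genes with no match, 0.05 for 918 with 1 match and 0.08 for 132 with 2 or more. The middle 50% of the last group ran from -0.12 to 0.36 and that of the first from -0.19 to 0.26. At 24 h the medians were 0.01, 0.06 and 0.06, and at 1 h 0.00, -0.04 and -0.02. The groups overlap almost entirely, and they differ in 3′ UTR length, so the values describe these tables and carry no test.

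Igf2bp1 failed estimation in the treated condition of each table while its 0 h estimate passed. Fat1 also failed in the treated condition, at 1 and 24 h, and Ppp6r3 failed at 0 h in the 8 and 24 h tables. All of these genes were expressed at over 20 FPKM.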
